A study of Mus musculus with 14 samples.

Results

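The comparison described here was late 2-cell mouse embryos injected with Lac-CoA against late 2-cell embryos that had no lactate, by RNA-seq. It used 4 of the 14 samples of the series, 2 libraries labelled L2C-G+N-L+A (called the Lac-CoA libraries) and 2 labelled L2C-G+N-L (the lactate-free libraries), each made from 5 embryos of ICR mice. Every gene above a low-count filter was included, 19610 of the 56923 genes in the count table, with those higher and those lower in the Lac-CoA libraries treated alike. The embryos of both groups were grown in mKSOM medium without sodium lactate (NaLac) and with GNE140, an inhibitor of the lactate dehydrogenases LDHA and LDHB, and NMN, a precursor of NAD. Lac-CoA was injected into zygotes of the one group, which the labels give as "CoA". No embryos injected with vehicle or with plain CoA were measured in this comparison, so an effect of the injection and an effect of Lac-CoA cannot be told apart. Another group, labelled L2C-G+N (the lactate-fed libraries, n = 2), had the same medium with lactate and received no Lac-CoA; its values are given beside the others as a reference level. The question was whether Lac-CoA changed the transcripts of embryos that had no lactate.

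Lactate is carried into the early embryo from the oviduct or the medium, and is also made from pyruvate by lactate dehydrogenase. Lac-CoA, lactate joined to coenzyme A, is the donor from which the lactyl group is placed on histone lysines such as H3K18. In the mouse, the genome of the embryo is silent after fertilization, a small early set of genes comes on in the zygote and early 2-cell embryo (minor zygotic genome activation, ZGA), and a large set comes on in the late 2-cell embryo (major ZGA), among them genes for ribosomes, nucleoli and RNA processing, while the mRNAs stored in the oocyte are cleared.

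The 4 libraries held 34935873 to 38555609 counts, and 21523 to 22057 genes were detected in each. Mitochondrial genes took 5.65% to 6.50% of the counts. Across the genes tested, Pearson's r of log2 CPM (counts scaled to the library size after TMM normalization) was 0.818 between the Lac-CoA libraries and 0.830 between the lactate-free ones, against 0.783 to 0.808 between the groups, so that the spread within a group was nearly as wide as the distance between groups. With the lactate-fed libraries, r was 0.824 to 0.842 for the Lac-CoA libraries and 0.831 to 0.840 for the lactate-free ones. Libraries of both groups thus correlated better with the lactate-fed libraries than with their own replicate. Between the lactate-fed libraries r was 0.873. The identity of the embryos was checked with markers. The summed level of 13 genes of the 2-cell stage was 3915 and 3878 CPM in the Lac-CoA libraries, 2539 and 3134 CPM in the lactate-free libraries, and the sum of 10 oocyte genes was 2025 and 1472 CPM against 2501 and 3410.5 CPM. Of 18 genes of cumulus cells, which surround the egg, 7 passed the filter and 0 differed; Inha, Ptgs2, Ptx3, Amh and Inhba were at 0 in all 4 libraries, and the 18 genes summed to 16.0 and 24.3 CPM with Lac-CoA and 19.5 and 18.3 CPM without. Sperm genes summed to 14.1 and 14.7 CPM against 21.6 and 16.5 CPM. Counts are relative to the total of a library, so the amount of RNA in an embryo was not measured, and fewer cells and less RNA in each cell cannot be told apart.

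By edgeR's quasi-likelihood test, 0 genes were higher and 0 lower at an adjusted p under 0.05 (0% of the genes tested in either direction), and the smallest adjusted p was 0.294. Before adjustment 2609 genes had a p under 0.05, where 980.5 would if no gene differed, and with DESeq2 3179 genes. Genes are therefore described at the looser criterion drawn in the study's volcano plots, a p under 0.05 before adjustment and a change of over 0.5 on the log2 scale, and "called" below means that criterion. It was met by 1352 genes that were higher with Lac-CoA (6.89% of those tested) and by 1234 that were lower (6.29%). Single genes among these carry no guard against chance over the whole table. DESeq2, at an adjusted p under 0.05, called 669 genes higher (3.41%) and 514 lower (2.62%). Both Lac-CoA libraries lay above both lactate-free libraries for 4916 genes (25.1%) and below both for 4246 genes (21.7%). The counts leaned on single libraries. Without the second Lac-CoA library 864 genes were called higher, and without the first or the second lactate-free library 658 or 563 were called lower.

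**Figure D1:**
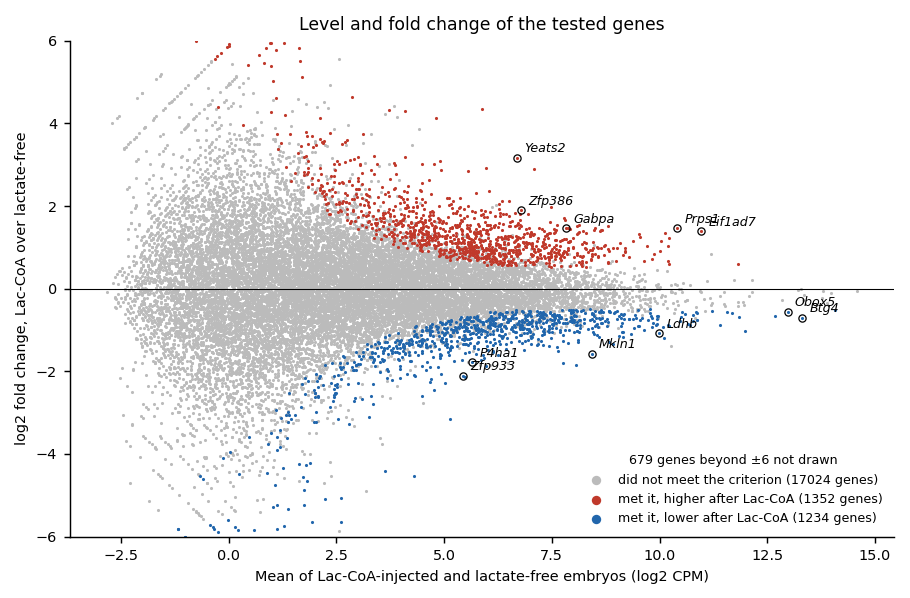
Log2 fold change of each tested gene, Lac-CoA over lactate-free libraries (y axis), against its mean level in the 4 libraries in CPM (x axis, log scale), with the called genes coloured by direction and some of those named in the text labelled. The called genes lie on both sides of 0 at nearly equal number, 1352 above and 1234 below, and the median gene is at -0.01; 679 genes beyond 6 in either direction are not drawn.

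Among the genes with a formal name that were higher with Lac-CoA, the smallest p belonged to Yeats2, a YEATS-domain protein of the ATAC acetyltransferase complex that binds acylated lysines of histones (chr16:19959803-20053255, plus strand, mm39). Its level was 138 and 235 CPM in the Lac-CoA libraries, 20.3 and 19.2 CPM in the lactate-free libraries and 11.4 and 15.9 CPM in the lactate-fed libraries. The Lac-CoA libraries thus stood apart from both other groups, with a log2 fold change over the lactate-free ones of 3.17 ± 0.33 (SE) and a DESeq2 adjusted p of 3.39e-17. The second YEATS-domain gene among the leading genes went the other way. Mllt3, whose product AF9 joins acylated histone tails to the elongation machinery (chr4:87687837-87951610, minus strand), was at 351 and 331 CPM with Lac-CoA, 719 and 720.4 CPM in the lactate-free and 949 and 710.4 CPM in the lactate-fed libraries. Its log2 fold change was -1.14 ± 0.16, and all 4 libraries without Lac-CoA lay above both libraries with it.

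Gabpa encodes the DNA-binding subunit of the ETS-family factor GABP, which acts at promoters of housekeeping genes (chr16:84631140-84660672, plus strand). It was at 317 and 355 CPM with Lac-CoA against 118 and 115 CPM in the lactate-free libraries, a log2 fold change of 1.46 ± 0.18, and at 302 and 495 CPM in the lactate-fed libraries. The Lac-CoA and lactate-fed libraries overlapped, and both lactate-free libraries lay below all of them. Gon7, a subunit of the KEOPS complex that modifies tRNA (chr12:102719534-102724062, minus strand), had the same order, with 119 and 128 CPM, 34.2 and 28.5 CPM and 146 and 123 CPM in the Lac-CoA, lactate-free and lactate-fed libraries (log2 fold change 1.92 ± 0.23 for Lac-CoA over lactate-free). So did Cggbp1, which encodes a protein binding CGG repeats (chr16:64672281-64681019, plus strand), at 466 and 579.8, 192 and 179.9 and 444 and 542 CPM (log2 fold change 1.43 ± 0.19), and Abt1, an activator of basal transcription found in nucleoli (chr13:23602531-23608068, minus strand), at 112 and 135, 34.5 and 32.1 and 108 and 103 CPM (log2 fold change 1.82 ± 0.23). In each of these genes the lactate-free libraries lay below the other 4.

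Of the other leading genes on the higher side, Nop16, a nucleolar protein of the large ribosomal subunit's assembly, was at 215 and 174 CPM against 58.6 and 47.7 CPM (log2 fold change 1.81 ± 0.24). Ing1, which reads methylated H3K4 within a histone deacetylase complex, was at 250.3 and 253 against 92.9 and 95.7 CPM (1.35 ± 0.18). Bcap31 and Emc4, both membrane proteins of the endoplasmic reticulum, had log2 fold changes of 1.42 ± 0.19 and 1.86 ± 0.25. The small GTPase gene Arl4a was at 1093 and 1041 CPM with Lac-CoA and 405 and 455 CPM without, and the ubiquitin ligase gene Rnf125 at 122 and 159 and 40.2 and 38.9 CPM. Nxf2, an X-linked mRNA export factor, was at 661 and 684 CPM with Lac-CoA, 257 and 190.2 CPM in the lactate-free and 109.8 and 156 CPM in the lactate-fed libraries, so that the Lac-CoA libraries exceeded both other groups. Zfp386 and Zfp599, both zinc finger genes, had log2 fold changes of 1.90 ± 0.20 and 2.18 ± 0.29, and the translation-factor-like gene Eif1ad12 one of 1.42 ± 0.16.

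On the lower side, the smallest p was that of Mkln1, which encodes muskelin, a part of the CTLH ubiquitin ligase (chr6:31375670-31493746, plus strand). Mkln1 was at 187 and 169 CPM with Lac-CoA, 516 and 499 CPM in the lactate-free libraries and 239 and 249 CPM in the lactate-fed libraries, a log2 fold change of -1.58 ± 0.17 for Lac-CoA over lactate-free. The lactate-free libraries stood above the other 4. Vdac2, a channel of the outer mitochondrial membrane (chr14:21874266-21895952, plus strand), was also highest in the lactate-free libraries, at 374 and 374, 723 and 769.9 and 271 and 342 CPM in the same 3 groups (log2 fold change -1.06 ± 0.15), and Zfp933 was at 17.7 and 15.9, 55.95 and 82.6 and 19.03 and 16.7 CPM (-2.11 ± 0.32). Other genes were low in the Lac-CoA libraries alone. Gna14, a G protein alpha subunit, was at 268 and 299 CPM with Lac-CoA, and at 630.4 and 753 CPM and 709 and 697 CPM in the lactate-free and lactate-fed libraries (-1.35 ± 0.18 over lactate-free). P4ha1, a prolyl hydroxylase of collagen, was at 20.96 and 26.1, 71.6 and 82.7 and 75.5 and 89.2 CPM (-1.78 ± 0.27). Mgst3, a glutathione transferase of the endoplasmic reticulum, was at 63.4 and 61.4, 142 and 194 and 156 and 152 CPM (-1.49 ± 0.24). The remaining leading genes with counts in every library were Fbxw28 (-0.94 ± 0.14), the mitochondrial peptidase gene Mipep (-1.40 ± 0.21), D7Ertd443e (-1.26 ± 0.20), Stxbp4 (-1.19 ± 0.19), Erich5 (-1.58 ± 0.26) and the neuroligin gene Nlgn1 (-1.60 ± 0.27).

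For 2 of the 15 leading genes on the lower side both Lac-CoA libraries were at 0. Trim38 had 387 and 200 counts in the lactate-free libraries and Ly6a 262 and 211. The mean levels of these libraries were 109.9-fold and 88.4-fold above a floor of 3 counts per library. Being means of libraries that differ, these folds are no lower bound. Of the 1234 genes called lower, 402 were at or under 3 counts in both Lac-CoA libraries, 188 of them protein-coding, and of the 1352 called higher, 289 were at or under 3 counts in both lactate-free libraries, 171 of them protein-coding. Most of these had few counts in the other group. An exception, named after its values were seen, was Serpinb1a, a protease inhibitor, with 0 and 0 counts with Lac-CoA against 148 and 626 without. With amplified cDNA of 5 embryos, such presence and absence covers counting error only. Of the 30 leading genes, 28 stayed called under each alternative tried, those that leave out a library included, and Eif1ad12 and Nxf2 lost the call only when libraries of other groups, early 2-cell embryos among them, shared the fit.

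**Figure D2:**
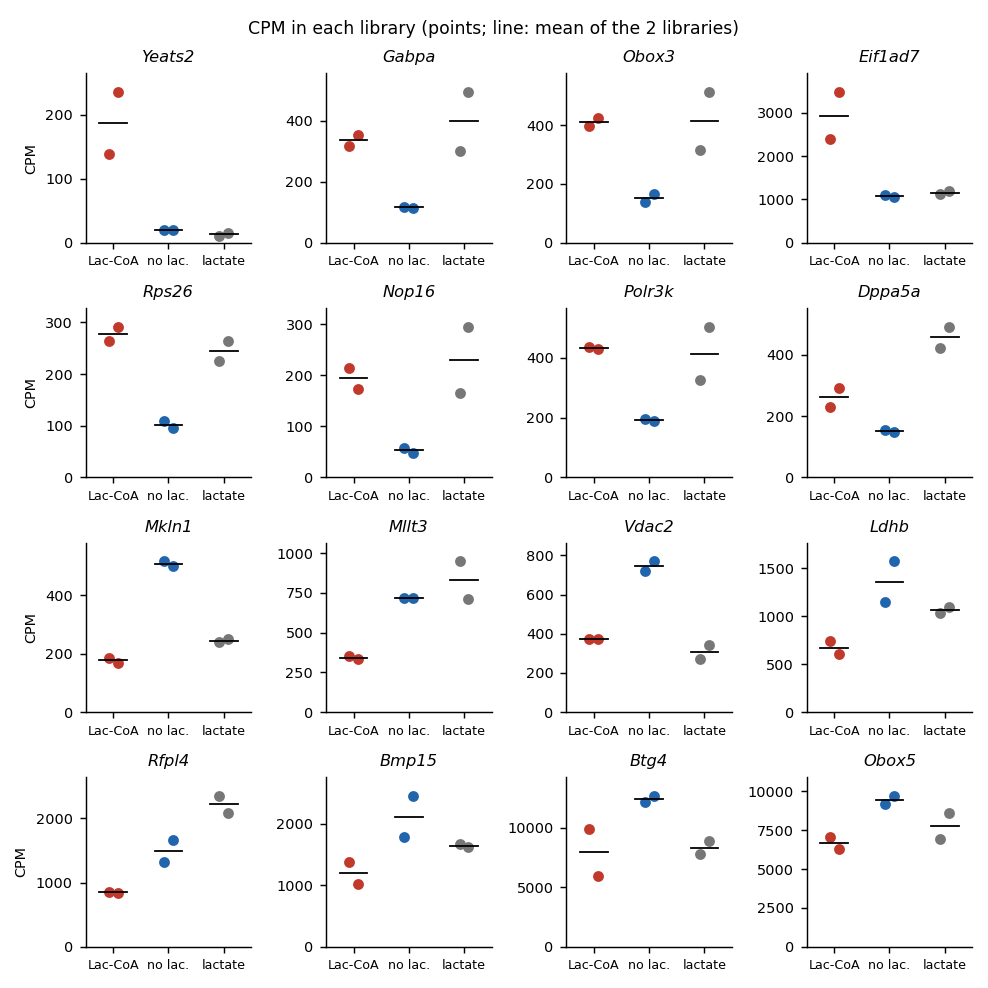
CPM of 16 genes named in the text (y axis, linear from 0, with its own range for each gene) in each of the 2 Lac-CoA, 2 lactate-free and 2 lactate-fed libraries, 1 point per library and a line at the mean of each group. In Gabpa, Obox3, Rps26 and Nop16 the Lac-CoA and lactate-fed libraries lie together above the lactate-free ones, in Yeats2 and Eif1ad7 the Lac-CoA libraries lie above both other groups, and in Mllt3 they lie below both.

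To order the table by developmental stage, genes were taken that differed between lactate-fed late 2-cell and lactate-fed early 2-cell embryos (edgeR adjusted p under 0.05, log2 fold change of at least 1), in 4 libraries of which none entered the comparison with Lac-CoA. The genes that rise from early to late 2-cell, 1591 in number, were mostly higher with Lac-CoA. Of the 1576 tested, 542 were called higher (34.4%, against 6.89% of all genes) and 12 lower. In 1015 (64.4%, against 25.1% of all genes) both Lac-CoA libraries lay above both lactate-free ones. The median log2 fold change was 0.79 (quartiles 0.35 and 1.23), against -0.01 for all genes. Between lactate-free and lactate-fed libraries the same list had a median of -0.79, and between Lac-CoA and lactate-fed libraries 0.06; these 3 medians share libraries, the list itself was chosen on the lactate-fed ones, and the values are given side by side only. The genes that fall from early to late 2-cell had the opposite direction. Of 1042 tested, 230 were called lower (22.1%, against 6.29% of all genes) and 14 higher, with a median of -0.54. Their median was 0.36 for lactate-free over lactate-fed and -0.12 for Lac-CoA over lactate-fed. Genes on neither list, 14788 in number, were called higher in 4.31% and lower in 5.57%, with a median of -0.06.

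Read from the side of the called genes, 40.1% of the 1352 higher genes were on the rising list and 18.6% of the 1234 lower genes on the falling list. Among the 3922 genes with the highest mean CPM 54.5% of 677 rising genes were called higher and 33.1% of 522 falling genes lower, where 15.5% and 13.1% of all 3922 were. Leaving ribosomal, nucleolar, polymerase and splicing genes out of the rising list gave 32.1% of 1487 genes called higher. The shares depended on single libraries while the directions of the medians did not. Without the second Lac-CoA library 22.8% of the rising list was called higher and 12.8% of the falling list lower, without the second lactate-free library 9.02% of the falling list was called lower, and over the 4 fits that each left out a library the medians ran from 0.64 to 0.93 and from -0.71 to -0.41.

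**Figure D3:**
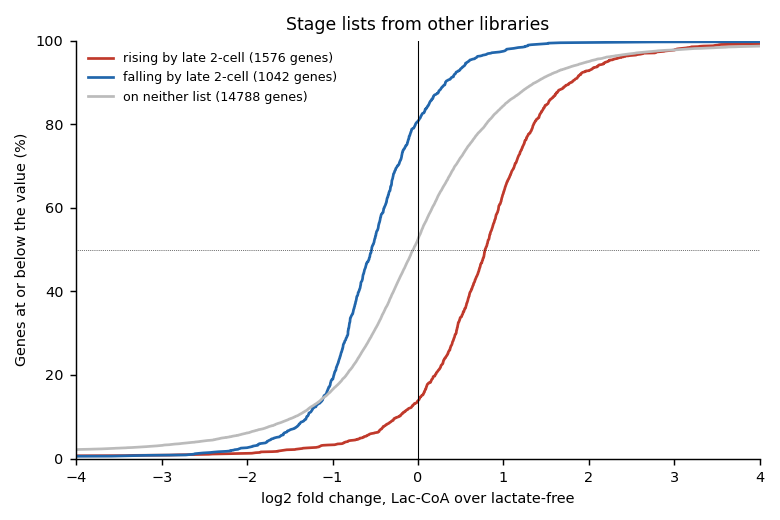
Cumulative share of genes (y axis) by log2 fold change of Lac-CoA over lactate-free libraries (x axis, drawn from -4 to 4) for the 1576 genes rising from early to late 2-cell, the 1042 falling and the 14788 on neither list. The curve of the rising genes is shifted to the right (median 0.79), that of the falling genes to the left (-0.54), and that of the other genes is centred near 0 (-0.06).

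Genes for making proteins were among those higher with Lac-CoA. Of the 86 genes of cytoplasmic ribosomal proteins, 49 were called higher (57.0%) and 1 lower, with a median log2 fold change of 0.91. Without the second Lac-CoA library 31 were called higher and without the second lactate-free library 27. In 73 of the 86 (84.9%, against 25.1% of all genes) both Lac-CoA libraries exceeded both lactate-free libraries, and DESeq2 called 29 higher. The list's median for lactate-free over lactate-fed was -1.10, and for Lac-CoA over lactate-fed -0.07. Rps26, of the small subunit (chr10:128460395-128462636, minus strand), was at 264 and 292 CPM with Lac-CoA, 109 and 94.8 CPM in the lactate-free and 226 and 263 CPM in the lactate-fed libraries (log2 fold change 1.38 ± 0.19). Rpl9, of the large subunit, was at 99.8 and 97.3, 28.9 and 22.7 and 96.8 and 113 CPM (1.87 ± 0.25), and Rps13 at 135 and 137, 50.5 and 39.99 and 141 and 179 CPM (1.52 ± 0.23). In all 3 genes the lactate-free libraries lay apart below the other 4. Rps3a1 had a log2 fold change of 1.53 ± 0.24, and Rplp0, a protein of the ribosomal stalk, was at 1058 and 1235 CPM with Lac-CoA, 498 and 577 CPM without and 569 and 681 CPM in the lactate-fed libraries, so that in Rplp0 the Lac-CoA libraries were above both others. The 1 gene called lower was Rps3a2, a copy of Rps3a1. Ribosomal protein genes have many processed copies in the genome, and how reads were shared among copies is uncertain. Of the 86 genes, 50 were on the rising list and 0 on the falling list.

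The nucleolus, where ribosomes are assembled, had the same direction. Of 86 genes of ribosome biogenesis 25 were called higher (29.1%) and 0 lower, with a median of 0.73 (-0.92 for lactate-free over lactate-fed and -0.11 for Lac-CoA over lactate-fed), although only 16 of them were on the rising list; 16 were called higher without the second Lac-CoA library. Nhp2 and Dkc1, core proteins of the box H/ACA particles that guide pseudouridine formation, were at 311 and 377 against 82.1 and 124 CPM and at 219 and 219.7 against 99.97 and 91.9 CPM (log2 fold changes 1.67 ± 0.27 and 1.13 ± 0.18). Ebna1bp2, a factor of the large subunit, had a log2 fold change of 1.59 ± 0.25, and Taf1d, a part of the promoter selectivity factor of RNA polymerase I, one of 1.05 ± 0.20. Of 30 subunits of RNA polymerases I, II and III, 9 were called higher (30.0%) and 1, Polr2j, lower, with a median of 0.66. Polr3k, of polymerase III, was at 437 and 430.4 CPM with Lac-CoA, 195 and 188 CPM in the lactate-free and 325 and 504 CPM in the lactate-fed libraries (1.12 ± 0.16). Polr2b, the second largest subunit of polymerase II, was at 102 and 128 against 54.9 and 49.7 CPM (1.07 ± 0.23), and Polr2d and Polr2h had log2 fold changes of 1.18 ± 0.20 and 1.27 ± 0.28.

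RNA processing and translation followed at smaller size. Of 122 spliceosome genes 24 were called higher (19.7%, against 6.89% of all genes) and 1 (Lsm10) lower. Their median was 0.34, and 0.18 without the second Lac-CoA library. Snrpd2, an Sm core protein, was at 150.3 and 160.5 against 57.7 and 45.03 CPM (1.53 ± 0.23), and Dhx8, the helicase that releases the spliced mRNA, at 29.7 and 31.3 against 5.22 and 5.24 CPM (2.48 ± 0.39). Rbm8a, of the exon junction complex, had a log2 fold change of 0.98 ± 0.17. Of 66 translation factors 17 were called higher (25.8%) and 2 lower (3.03%), with a median of 0.33. The higher ones were led by the poly(A)-binding protein gene Pabpc1 (1.60 ± 0.24), Eif2b4 (2.33 ± 0.39) and Eif3m (2.16 ± 0.37). The 2 lower were Eif4e1b and Eif1b, of which Eif4e1b is a cap-binding protein known from oocytes. Among 20 aminoacyl-tRNA synthetases 4 were higher, Rars at 105 and 75.9 against 15.3 and 19.5 CPM (2.32 ± 0.31) first, and Farsb was lower (-0.69 ± 0.22), a call lost without the second Lac-CoA library or either lactate-free library. With any 1 library left out 2 or 3 of the 20 were higher.

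Genes for folding and degrading proteins had the same direction. Of 29 chaperones 13 were called higher (44.8%) and 3 lower (median 0.55), among them Cct6a at 85.6 and 109 against 26.5 and 37.8 CPM and Tcp1 at 188 and 251 against 106 and 86.03 CPM, both subunits of the CCT ring that folds actin and tubulin, and Hspa4 (1.37 ± 0.31). The testis-type HSP70 gene Hspa2 had 1.54 ± 0.34. The median of the chaperones was 0.34 without the second Lac-CoA library, and 8 were called higher without the second lactate-free library. Of 48 proteasome genes 11 were higher (22.9%) and 2 lower (median 0.31), with Psmd14 (1.42 ± 0.26), Psmc3 (1.48 ± 0.28) and Psmb1 (1.33 ± 0.27) leading, and 6 or 7 higher when the second Lac-CoA library or either lactate-free library was left out. Map1lc3b, the autophagosome protein LC3B, was at 1594 and 1616 CPM with Lac-CoA, 774 and 735 CPM in the lactate-free and 1536 and 2122 CPM in the lactate-fed libraries. Prps1, which makes the ribose donor of nucleotide synthesis, was at 2438 and 1594, 810.4 and 591 and 979 and 2301 CPM, and Calm2, a calmodulin gene, at 3916 and 4888, 2848 and 2751 and 3709.8 and 5499.9 CPM. The log2 fold changes of Map1lc3b, Prps1 and Calm2 over lactate-free were 1.03 ± 0.14, 1.47 ± 0.28 and 0.59 ± 0.15; these 3 genes were chosen after their values were seen. Calm2 lost the call without the second Lac-CoA library.

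**Figure D4:**
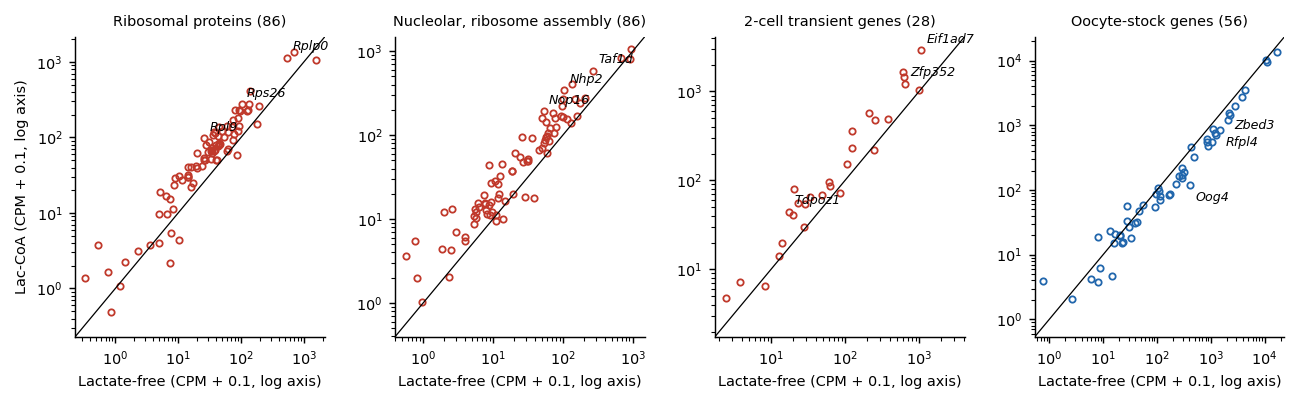
Mean CPM + 0.1 in the Lac-CoA libraries (y axis, log scale) against mean CPM + 0.1 in the lactate-free libraries (x axis, log scale) for each tested gene of 4 lists, 86 ribosomal protein, 86 nucleolar, 28 transient 2-cell and 56 oocyte genes, with the line of equal levels. The genes of the first 3 lists lie mostly above the line, and those of the oocyte list mostly below it.

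Genes that are on only for a short time around the 2-cell stage were higher with Lac-CoA. By its median the list also lay above the lactate-fed libraries, although not every family on it did (Tdpoz genes, below). Of 28 such genes 13 were called higher (46.4%) and 0 lower, with a median of 0.84 on the log2 scale; it was -0.15 for lactate-free over lactate-fed and 0.83 for Lac-CoA over lactate-fed. Of the 13, 6 were Eif1ad genes, a cluster of copies related to the translation factor eIF1A. Eif1ad7 (chr12:88237410-88241270, minus strand) was at 2392 and 3477 CPM with Lac-CoA, 1101 and 1045 CPM in the lactate-free and 1121 and 1193 CPM in the lactate-fed libraries (1.39 ± 0.21 over lactate-free). Eif1ad3 was at 1385 and 1543, 585 and 674 and 696 and 812 CPM (1.15 ± 0.16), Eif1ad8 at 1345 and 1926, 579 and 647 and 797 and 682 CPM (1.35 ± 0.21). Both Lac-CoA libraries lay above all 4 others in these 3 genes. Over the whole family, counted after its values were seen, 14 of 18 genes were called higher (77.8%, against 6.89% of all genes) and 0 lower. The family's median was 1.14, and 1.03 against the lactate-fed libraries. These genes are near copies of each other, so a read cannot be placed with certainty and the counts of single members are uncertain. The call of Eif1ad3, Eif1ad4, Eif1ad7 and Eif1ad8 was lost when early 2-cell libraries shared the fit.

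Zscan4d and Zscan4f, of the best known family of transient 2-cell genes, were not called. Zscan4d was at 1213 and 857 CPM with Lac-CoA and 858 and 1122 CPM without, overlapping, with a log2 fold change of 0.00 ± 0.25, and Zscan4f at 86.3 and 42.7 and 27.3 and 40.7 CPM (0.87 ± 0.44), with both Lac-CoA libraries above both lactate-free ones. Usp17lb, a ubiquitin protease of the 2-cell stage, was at 462 and 488 CPM against 200.02 and 309.6 CPM (0.83 ± 0.25) and lost the call without the first lactate-free library. Tdpoz genes, another family of near copies, were called higher in 3 of 9 (33.3%, against 6.89% of all genes) and lower in 0, with a median of 0.88. Their median was -0.77 for lactate-free over lactate-fed and 0.14 for Lac-CoA over lactate-fed libraries. Tdpoz1 was at 40.2 and 48.8 CPM with Lac-CoA, 11.8 and 23.5 CPM in the lactate-free and 54.3 and 42.3 CPM in the lactate-fed libraries. Unlike the Eif1ad genes, this family was thus near the lactate-fed level with Lac-CoA.

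The study looked at Dppa and Usp genes as marks of major ZGA. Of 5 Dppa genes tested 2 were called higher. Dppa4, a nuclear protein of pluripotent cells, was at 192 and 168 CPM with Lac-CoA, 86.1 and 77.9 CPM in the lactate-free and 233 and 348 CPM in the lactate-fed libraries (1.07 ± 0.20). Dppa5a, an RNA-binding protein, was at 231 and 294, 154 and 148 and 422 and 492 CPM (0.73 ± 0.20), between the other 2 groups and overlapping neither, but it lost the call when the second Lac-CoA library or either lactate-free library was left out. Dppa3, a protein stored in the oocyte, and Dppa2, the partner of DPPA4, had log2 fold changes of -0.28 ± 0.13 and -0.25 ± 0.20 and were not called. Of 55 Usp genes 3 were called higher (5.45%) and 4 lower (7.27%), shares near the 6.89% and 6.29% of all genes. Usp22, of the SAGA coactivator, was at 33.3 and 53.3 against 7.23 and 6.11 CPM (2.63 ± 0.41), and Usp2 at 83.5 and 82.97 against 129 and 152 CPM (-0.82 ± 0.21), not called without the second lactate-free library. Usp44, which acts in the spindle checkpoint, had 0 counts in both Lac-CoA libraries and 114 and 135 in the lactate-free ones. Usp29 was at 19.97 and 37.4 against 17.3 and 12.8 CPM (0.87 ± 0.45) and Kdm4b, an H3K9 demethylase, at 3.88 and 2.65 against 0.201 and 1.46 CPM, and neither was called.

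Transcription factors tied to ZGA were called higher in 10 of 40 (25%, against 6.89% of all genes) and lower in 3 (7.5%, against 6.29%). Besides Gabpa, Nfyb, a subunit of the CCAAT-binding factor NF-Y, was at 129 and 202 CPM against 54.7 and 55.4 CPM (1.52 ± 0.28). Crxos, a homeobox gene of the 2-cell embryo, was at 808 and 1052 against 446 and 349 CPM (1.16 ± 0.21). Nr5a2, a nuclear receptor, was at 40.5 and 40.01, 19.02 and 21.1 and 47.998 and 48.3 CPM in the Lac-CoA, lactate-free and lactate-fed libraries (0.94 ± 0.30), and lost the call whenever any 1 of the 4 libraries was left out. Klf4 was at 26.2 and 46.9 against 7.58 and 9.49 CPM (2.03 ± 0.45). Spic, an ETS-family factor, stayed between the groups, at 99.996 and 183 CPM with Lac-CoA, 56.96 and 31.9 CPM in the lactate-free and 403 and 607 CPM in the lactate-fed libraries.

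The Obox genes, homeobox factors of the oocyte and the 2-cell embryo that lie together on chromosome 7, had members in both directions. Obox3 (chr7:15359227-15373827, minus strand), which comes on at the 2-cell stage, was at 398 and 425 CPM with Lac-CoA, 139 and 165 CPM in the lactate-free and 314 and 512 CPM in the lactate-fed libraries (1.37 ± 0.19). Obox6 and Obox8 were at 847 and 704 against 448 and 343 CPM and at 40.2 and 67.9 against 3.44 and 8.64 CPM (0.91 ± 0.21 and 3.09 ± 0.59). The log2 fold changes from early to late 2-cell of lactate-fed embryos were 7.32, 10.53 and 12.66 for Obox3, Obox6 and Obox8. Obox5, known as an oocyte transcript, was lower with Lac-CoA, at 7084 and 6269 against 9158 and 9699 CPM (-0.56 ± 0.13), although it lost the call without the second Lac-CoA library, as were Obox1 and Obox2. Of the 7 genes tested 3 were thus called higher and 3 lower. The members resemble each other in sequence, which makes the counts of single members uncertain.

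Promoters were read from the RefSeq tables (GRCm38.p6, 250 bases before to 50 after the start, 5′ to 3′ on the gene's strand). The first 5 hold the ETS core, the letters CCGGAAG or their complement CTTCCGG, in capitals, to which GABP and other ETS factors bind, and are shown as examples from genes higher (Gabpa, Gon7, Cggbp1 and Rps26) and lower (Gna14) with Lac-CoA:
Gabpa (chr16:84834874-84835173, plus strand): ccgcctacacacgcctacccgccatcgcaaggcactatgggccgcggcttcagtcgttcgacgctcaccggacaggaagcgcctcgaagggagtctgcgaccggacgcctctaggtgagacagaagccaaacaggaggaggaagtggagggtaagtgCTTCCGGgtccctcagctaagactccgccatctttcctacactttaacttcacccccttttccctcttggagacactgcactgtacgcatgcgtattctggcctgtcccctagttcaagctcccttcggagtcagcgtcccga
Gon7 (chr12:102757761-102758060, minus strand): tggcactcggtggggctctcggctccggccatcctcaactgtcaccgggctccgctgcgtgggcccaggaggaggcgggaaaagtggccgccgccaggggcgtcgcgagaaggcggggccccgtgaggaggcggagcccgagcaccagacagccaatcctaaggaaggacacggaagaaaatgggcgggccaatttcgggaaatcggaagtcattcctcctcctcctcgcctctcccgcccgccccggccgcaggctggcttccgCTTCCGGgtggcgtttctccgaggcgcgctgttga
Cggbp1 (chr16:64851751-64852050, plus strand): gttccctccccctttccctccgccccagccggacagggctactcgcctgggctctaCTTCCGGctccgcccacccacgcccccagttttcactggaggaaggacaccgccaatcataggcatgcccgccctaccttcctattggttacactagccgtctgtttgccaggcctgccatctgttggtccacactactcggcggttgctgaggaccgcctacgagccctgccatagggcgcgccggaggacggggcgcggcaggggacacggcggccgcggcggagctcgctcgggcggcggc
Rps26 (chr10:128626457-128626756, minus strand): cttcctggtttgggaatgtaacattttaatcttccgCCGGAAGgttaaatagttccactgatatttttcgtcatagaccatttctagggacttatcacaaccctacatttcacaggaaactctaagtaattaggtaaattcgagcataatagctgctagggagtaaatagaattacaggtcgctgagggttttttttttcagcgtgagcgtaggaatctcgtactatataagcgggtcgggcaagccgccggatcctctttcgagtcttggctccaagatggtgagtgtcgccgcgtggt
Gna14 (chr19:16435417-16435716, plus strand): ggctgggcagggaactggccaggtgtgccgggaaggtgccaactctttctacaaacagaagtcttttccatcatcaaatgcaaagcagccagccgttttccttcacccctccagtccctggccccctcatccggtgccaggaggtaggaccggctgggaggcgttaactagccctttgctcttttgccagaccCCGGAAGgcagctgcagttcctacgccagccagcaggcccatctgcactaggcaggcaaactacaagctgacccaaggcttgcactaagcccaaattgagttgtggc
The promoter of Mkln1, first on the lower side, holds no ETS core and has the YY1 core AAGATGG or its complement in capitals, which Gabpa, Rps26 and Yeats2 also hold (not marked above):
Mkln1 (chr6:31398578-31398877, plus strand): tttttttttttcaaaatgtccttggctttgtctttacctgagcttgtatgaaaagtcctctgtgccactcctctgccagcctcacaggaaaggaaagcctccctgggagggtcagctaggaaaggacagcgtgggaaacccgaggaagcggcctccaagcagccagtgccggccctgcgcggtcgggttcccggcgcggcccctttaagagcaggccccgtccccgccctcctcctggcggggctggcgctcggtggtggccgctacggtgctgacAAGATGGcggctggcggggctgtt

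Of the 30 leading genes, 12 in each direction had a RefSeq promoter, and the ETS core was in 4 of the 12 higher genes (Gabpa, Gon7, Cggbp1 and Emc4) and 1 of the 12 lower ones (Gna14), the YY1 core in 2 of each. Among all called genes selected by the naming rule or named afterwards, 21 of the 87 higher and 3 of the 42 lower ones with a promoter held the ETS core, and 10 and 8 held the YY1 core. Over the 12411 tested genes with a RefSeq promoter, both strands searched, the ETS core was in 15.6% of promoters (9.12% of all 27025 in the table), in 20.8% of the 920 called higher and in 12.2% of the 803 called lower. It was in 39.7% of 63 ribosomal protein promoters and in 2.17% of 46 oocyte genes. The rising and falling lists held it alike, in 17.0% and 17.7%. The letters TTAATCC, the core that Obox proteins and related homeodomains bind, were in 2.05% of the promoters tested, in 4.13% of those called higher, in 1.49% of those called lower and in 5.07% of the rising list. Of 15 transient 2-cell promoters 3 held it. The YY1 core differed little, at 6.99%, 7.07% and 7.22% of those tested, called higher and called lower. The E-box CACGTG was in 9.61%, 11.8% and 8.97%, the CCAAT box in 40%, 44.9% and 37.7%, the TATA box TATAAA in 9.19%, 7.61% and 12.3%, and the pyrimidine run CTTTTTC in 5.25%, 4.67% and 5.98%. The median GC content was 59% in the promoters tested and in those called higher, and 56.3% in those called lower. It was 58% in ribosomal protein, 52% in oocyte and 45.7% in transient 2-cell promoters. The part of base composition in these shares was not tested. A match is a description of the letters in the window and carries no test.

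On the lower side stood the mRNAs of the oocyte. Of 56 genes known from the oocyte 20 were called lower (35.7%, against 6.29% of all genes) and 1 higher (Trim28, a corepressor of retroelements), with a median of -0.55 on the log2 scale. It was 0.23 for lactate-free over lactate-fed and -0.21 for Lac-CoA over lactate-fed, and 27 of the 56 were on the list falling from early to late 2-cell. Of the 38 among the 3922 genes of highest level, 19 were called lower. Without the second lactate-free library 12 of the list were called lower. Rfpl4, a RING finger protein of the oocyte (chr7:5112786-5119949, minus strand), was at 861 and 832 CPM with Lac-CoA, 1318 and 1658 CPM in the lactate-free and 2348 and 2089.99 CPM in the lactate-fed libraries (-0.88 ± 0.18). The Lac-CoA libraries were the lowest of the 3 groups. Ooep, of the subcortical maternal complex, was at 94.6 and 74.9, 157 and 179 and 134 and 103 CPM (-1.05 ± 0.23), and Bcl2l10, a BCL2 relative of the oocyte, at 681 and 751, 1072 and 1425 and 1254 and 1087 CPM (-0.87 ± 0.20). Bmp15, a growth factor secreted by the oocyte, was at 1376 and 1029, 1784 and 2455 and 1673 and 1619 CPM (-0.88 ± 0.24) and lost the call without the second lactate-free library. In Ooep, Bcl2l10 and Bmp15 both lactate-free libraries lay above both Lac-CoA libraries.

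Gene families known from the oocyte also lay on the lower side. They were chosen after their values were seen. Nlrp genes are relatives of the inflammasome proteins, and several are oocyte proteins. Of 14 tested, 10 were called lower (71.4%, against 6.29% of all genes and 13.1% of the 3922 genes of highest level) and 0 higher (median -0.69). Nlrp9c was at 2866 and 2532 against 4099.6 and 3661 CPM, Nlrp4f at 1632 and 1229 against 2519 and 2128 CPM and Nlrp14 at 631 and 473 against 837 and 1265 CPM, with log2 fold changes of -0.59 ± 0.15, -0.76 ± 0.20 and -0.99 ± 0.28. Each of the 3 lost the call when some 1 library was left out. Of 21 Fbxw genes, F-box proteins with WD40 repeats, 8 were called lower (38.1%) and 0 higher (median -0.46), and all 8 lie on chromosome 9. Fbxw24 was at 1338 and 1191 against 1819 and 1866 CPM, Fbxw28 at 629 and 651 against 1167 and 1177 CPM and Fbxw15 at 205 and 165 against 349 and 373 CPM, with log2 fold changes of -0.61 ± 0.15, -0.94 ± 0.14 and -1.03 ± 0.20. Spin1, an abundant histone reader of the oocyte, was at 14729 and 14159.9 CPM against 18873 and 20726 CPM (-0.52 ± 0.12) and was not called without the second Lac-CoA library or the second lactate-free library. The near copies within the Nlrp and Fbxw clusters share reads, as above. Pramel genes had no single direction, with 11 of 43 called higher (25.6%, against 6.89% of all genes) and 5 lower (11.6%, against 6.29%).

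The factors that clear stored mRNA were called lower in 7 of 39 (17.9%, against 6.29% of all genes) and higher in 2 (5.13%, against 6.89%), with a median of -0.24. Without the second Lac-CoA library 2 of them were called lower, without the first lactate-free library 4 and without the second 1, and the median was -0.44 without the first Lac-CoA library and -0.16 without the second lactate-free one. Btg4, an adaptor that brings the CCR4-NOT deadenylase to maternal mRNA, was at 9895 and 5972 CPM with Lac-CoA and 12151 and 12676 CPM without (-0.71 ± 0.26); its Lac-CoA libraries lay far apart, and the call was lost without the second of them or without either lactate-free library. Among the Cnot genes, named after the CCR4-NOT complex, Cnot4 and Cnot3 were lower (-1.17 ± 0.33 and -1.05 ± 0.31) and Cnot10 higher (1.52 ± 0.34). The calls of Cnot4 and Cnot3 were lost without the second lactate-free library, and that of Cnot3 also without the second Lac-CoA library.

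**Figure D5:**
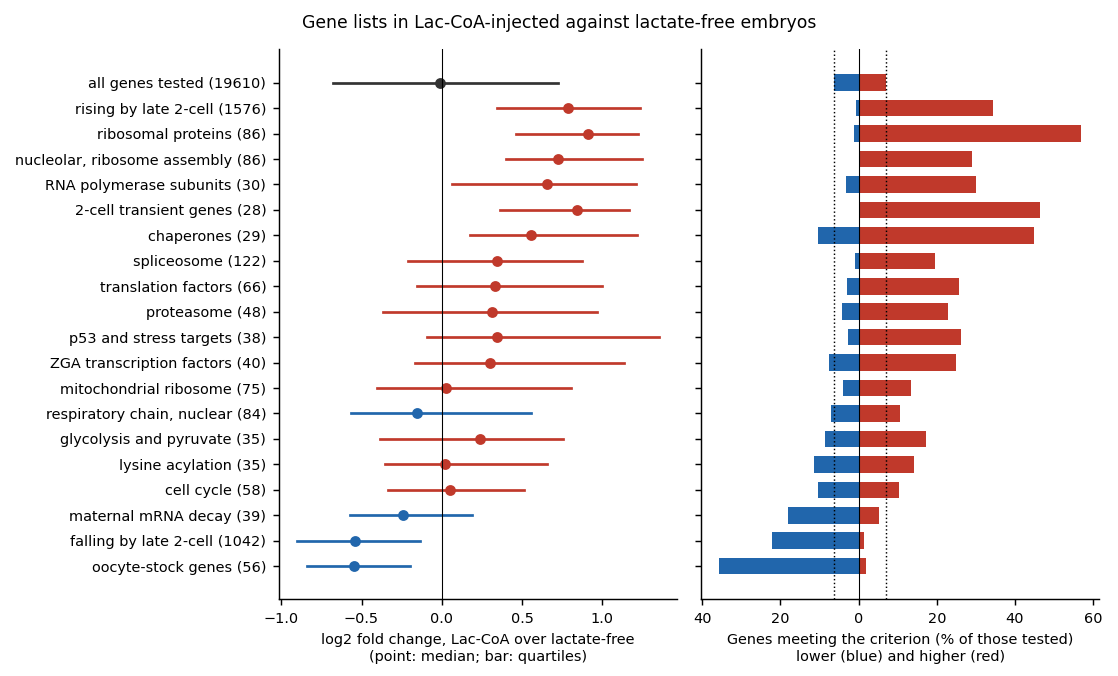
Left, median log2 fold change of Lac-CoA over lactate-free libraries for each gene list with its quartiles; right, percent of each list's tested genes called higher and lower, with the percent over all genes (6.89% and 6.29%) for reference. Of the 19 lists drawn, ribosomal protein, nucleolar, polymerase, transient 2-cell and stage-rising genes lie farthest to the right and the oocyte and stage-falling genes farthest to the left. Among lists not drawn, the medians were 0.80 for 17 interferon genes, 0.67 for 7 cumulus genes, -0.56 for 7 Obox genes and -2.87 for 4 sex-linked genes. With any 1 library left out they ran, in this order, from 0.47 to 1.03, 0.17 to 6.60, -0.61 to 0.30 and -2.93 to 0.35.

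Genes of glycolysis and the tricarboxylic acid cycle had members in both directions. The lactate dehydrogenases themselves parted. Ldhb (chr6:142435672-142454586, minus strand), the form of the oocyte, was at 738 and 607 CPM with Lac-CoA, 1148 and 1572 CPM in the lactate-free and 1035 and 1101 CPM in the lactate-fed libraries (-1.08 ± 0.22). Ldha (chr7:46490899-46505061, plus strand) was at 23.998 and 15.01, 5.05 and 3.75 and 8.83 and 13.6 CPM (2.09 ± 0.53), and lost the call without the first Lac-CoA library. The glucose transporter gene Slc2a3 was at 28.4 and 29.8 against 3.13 and 9.18 CPM (2.17 ± 0.62) and Mpc2, of the mitochondrial pyruvate carrier, at 305 and 387 against 221 and 206 CPM (0.63 ± 0.19). Mpc2 lost the call without the second Lac-CoA library or either lactate-free library. Of 35 genes of glycolysis and pyruvate 6 were higher (17.1%, against 6.89% of all genes) and 3 lower (8.57%, against 6.29%). Besides Ldhb the lower ones were Pdhx and Dlat, both of the pyruvate dehydrogenase complex. The median of the 35 genes, 0.24, was below 0 without the second Lac-CoA library or the first lactate-free library.

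In the tricarboxylic acid cycle, 2 of 21 genes were higher and 2 lower (9.52% each, against 6.89% and 6.29% of all genes). Mdh2, malate dehydrogenase of the mitochondrion, was at 218 and 244 against 122 and 119.9 CPM (0.87 ± 0.18), and Me1, the cytosolic malic enzyme, at 218 and 235 CPM with Lac-CoA, 405 and 359.99 CPM in the lactate-free and 576 and 570.3 CPM in the lactate-fed libraries (-0.82 ± 0.17). Of 84 nuclear genes of the respiratory chain 9 were higher (10.7%) and 6 lower (7.14%). Their median was -0.15, and 0.033 without the second Lac-CoA library. Among those called were Atp5g1 (0.99 ± 0.16), Cox7c (2.19 ± 0.38) and Ndufa4 (-1.10 ± 0.21). None of 13 mRNAs of the mitochondrial genome was called, and their median was -0.05 (-0.09 to 0.06 with any 1 library left out), while that of lactate-free over lactate-fed was -0.53 and that of Lac-CoA over lactate-fed -0.52. Of these, mt-Nd5 was at 962 and 1041 CPM with Lac-CoA, 1135 and 1062 CPM in the lactate-free and 2167 and 2017 CPM in the lactate-fed libraries, so that here the Lac-CoA libraries lay with the lactate-free ones. Mitochondrial ribosomal protein genes were called higher in 10 of 75 (13.3%) and lower in 3 (4%). Their median was 0.02 (0.04 to 0.23 with any 1 library left out), against 0.91 for the cytoplasmic ones.

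Genes of one-carbon and purine synthesis were called higher in 6 of 27 (22.2%, against 6.89% of all genes) and lower in 0 (median 0.48). Without the second Lac-CoA library 3 were higher and the median was 0.13, without the first 3 were higher, and without the second lactate-free library 2 were. Ppat, the first enzyme of purine synthesis, was at 185 and 177 CPM with Lac-CoA, 78.9 and 82.5 CPM in the lactate-free and 233 and 318 CPM in the lactate-fed libraries (1.10 ± 0.19), Mat2a, which makes S-adenosylmethionine, at 44.7 and 33.7, 13.4 and 17.4 and 37.8 and 55.3 CPM (1.29 ± 0.36). Mat2a lost the call without the first library of either group. Of 28 genes of cholesterol and lipid synthesis 4 were higher (14.3%, against 6.89% of all genes) and 0 lower. Cyp51 came first, at 27.7 and 49.8 against 5.65 and 6.90 CPM (2.56 ± 0.45). Of 19 genes of NAD metabolism 2 were higher (10.5%, against 6.89% of all genes), Sirt1, a NAD-dependent deacetylase (1.06 ± 0.31), and Parp2 (0.60 ± 0.23). Sirt1 lost the call without the second Lac-CoA library or the first lactate-free library, and Parp2 without any 1 of the 4 libraries.

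Since Lac-CoA is an acyl donor, the 35 tested genes of the enzymes and readers of lysine acylation were listed apart. Of these, 5 were called higher (14.3%) and 4 lower (11.4%), with a median of 0.02 (0.12 to 0.22 with any 1 library left out). Yeats2 and Mllt3, given above, were its leading members. Acss2, which makes acetyl-CoA from acetate, was at 4.11 and 3.05 CPM with Lac-CoA and at or under the floor of 3 counts in both lactate-free libraries. Kat6b, an H3K23 acetyltransferase, was at 69.97 and 70.7 against 124 and 105 CPM (-0.76 ± 0.21), and lost the call without the second Lac-CoA library or the first lactate-free library. Suclg2, of succinyl-CoA ligase, was at 55.1 and 59.6 against 99.1 and 79.5 CPM (-0.70 ± 0.23), and lost the call without either Lac-CoA library or the first lactate-free library. Of 48 genes of histone methylation 3 were called higher (6.25%, against 6.89% of all genes) and 5 lower (10.4%, against 6.29%). Kdm5b, which removes H3K4 methylation, was at 149 and 138 CPM with Lac-CoA, 72.02 and 57.9 CPM in the lactate-free and 205 and 220.3 CPM in the lactate-fed libraries (1.08 ± 0.22), Ezh1, an H3K27 methyltransferase, at 26.2 and 31.8, 63.3 and 65.02 and 49.96 and 45.5 CPM (-1.21 ± 0.26), and Dpy30, a core subunit of H3K4 methyltransferases, at 429 and 470.1, 678 and 741 and 613 and 781 CPM (-0.72 ± 0.16). The Y-linked Kdm5d was at 0.127 and 0.0509 CPM with Lac-CoA and 2.32 and 7.18 CPM without, and Ddx3y at 0.0253 and 0 and 4.53 and 1.46 CPM, while Eif2s3y and Uty overlapped between the groups. Kdm5d lost the call without the second lactate-free library and Ddx3y without the first; each library pools 5 embryos whose sexes are not given. Of 53 histone genes 3 were called higher (5.66%, against 6.89% of all genes) and 0 lower. The median was -0.27, with 31 of the 53 below 0. Both Lac-CoA libraries lay above both lactate-free ones in 11 (20.8%) and below both in 13 (24.5%). These shares were near the 25.1% and 21.7% of all genes. The median was -0.60 and -0.46 without the first and second Lac-CoA library and -0.10 without the second lactate-free one. The 3 called were H2bw2, which lost the call whenever any 1 library was left out, and both genes of the variant H2A.Z, H2az2 at 309 and 318 against 175 and 137 CPM (0.94 ± 0.20) and H2az1 at 862 and 1140.02 against 665 and 529.8 CPM (0.68 ± 0.21). H2az1 lost the call without the second library of either group.

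Genes of the p53 and stress responses were called higher in 10 of 38 (26.3%) and lower in 1 (Slc7a11), with a median of 0.34. The median was 0.62 without the first Lac-CoA library and 0.14 without the second, and 0.19 with the replicate number as a block. Some had a level in the Lac-CoA libraries above both other groups. Nupr1, a chromatin protein of stressed cells (chr7:126222414-126230033, minus strand), was at 101 and 149 CPM with Lac-CoA, 25.8 and 32.1 CPM in the lactate-free and 15.1 and 14.05 CPM in the lactate-fed libraries (2.04 ± 0.29 over lactate-free). Gadd45g, a growth-arrest gene, was at 43.2 and 33.4, 11.7 and 11.7 and 11.9 and 5.76 CPM (1.65 ± 0.35), and Eda2r, a receptor induced by p53, at 17.97 and 11.4, 2.53 and 1.04 and 0 and 0.401 CPM. Others were level with the lactate-fed libraries. Cdkn1a, the cell cycle inhibitor p21, was at 26.5 and 30.9, 12.2 and 8.93 and 23.7 and 33.2 CPM (1.38 ± 0.39), and Ppp1r15b, which reverses the phosphorylation of eIF2α, at 56.7 and 55.2, 23.6 and 20.5 and 54.7 and 38.1 CPM (1.28 ± 0.27). Ddit3, the stress factor CHOP, was at 70.8 and 69.01 against 39.7 and 36.8 CPM (0.81 ± 0.24). The calls of Cdkn1a, Ddit3, Gadd45a and Gadd45b were lost when single libraries were left out, and those of Nupr1, Gadd45g and Ppp1r15b were not.

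In the remaining lists the share called higher ran from 5.88% to 22.6%, against 6.89% of all genes. The share called also differed by level. Of the 3922 genes with the highest mean CPM 15.5% were called higher and 13.1% lower. Neither the lists here nor the functional lists above were matched for level when set against all genes. Of 58 cell cycle genes 6 were called higher and 6 lower (10.3% each), such as Ccne1, cyclin E1, at 149 and 132 against 59.7 and 71.5 CPM (1.03 ± 0.22), and the spindle checkpoint gene Mad2l1 at 1197 and 1230.1 against 1684 and 1741 CPM (-0.56 ± 0.14). Of 52 replication genes 8 were higher (15.4%) and 3 lower (median 0.33, and 0.21 without the second Lac-CoA library), Rpa2 (1.47 ± 0.35) and Pold3 (-1.28 ± 0.31) among them. Of 31 antioxidant genes 7 were higher (22.6%), led by Gpx4 (1.23 ± 0.29) and Prdx6 (0.84 ± 0.21), and Gstm5 was lower (-0.73 ± 0.17). Their median was 0.19, and 0.04 without the second Lac-CoA library and 0.46 without the second lactate-free library; 3 were higher without the first Lac-CoA library and 4 without the first lactate-free library. Of 61 genes of nuclear transport 7 were higher, such as Ranbp2 (1.19 ± 0.22), and 4 lower (11.5% and 6.56%). Of 17 interferon genes Ifi35 was higher (1.91 ± 0.44) and Ddx58, the RNA sensor RIG-I, lower (-1.69 ± 0.61), a call lost without either lactate-free library. Of 27 pluripotency and lineage genes 4 were higher (14.8%) and 0 lower (median 0.35, and 0.18 without the first lactate-free library). Zinc finger genes named Zfp were called higher in 27 of 342 (7.89%) and lower in 12 (3.51%). The Slc transporters were called higher in 16 of 259 (6.18%) and lower in 10 (3.86%).

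The shares also differed by kind and length of gene. By kind of gene, 8.0% of 13985 protein-coding genes were called higher and 6.26% lower, while of 2903 long noncoding RNAs 3.51% were higher and 7.58% lower, with a median of -0.30. By length, the share of protein-coding genes called higher was 10.7% in the 2797 genes with the shortest summed exons and 9.15%, 8.01%, 7.19% and 4.97% in the next sets of 2797 by length, while the share called lower was 6.65% in the shortest and 7.58% in the longest. Ribosomal protein genes are short, and the part of length in their difference was not tested. By chromosome, the share called higher was from 4.20% (chromosome 6) to 9.78% (X) over the autosomes and X.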

How the data were processed

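RNA was measured in 14 libraries of 5 embryos each, of which 12 were used: the 4 of the comparison, 2 lactate-fed late and 2 lactate-fed early 2-cell libraries, and 4 others (L2C-WT and E2C-G+N-L) in alternatives only. Per the labels and methods, the authors used FastQC, Trim Galore, HISAT2 (genome mm39) and featureCounts, and what they deposited is a table of raw counts; strand settings and the handling of multiply mapped reads are not given in the sources used here, so overlapping, antisense and near-identical genes are uncertain. The 4 libraries had 34935873 to 38555609 counts. The floor of 3 counts in a library (0.0778 to 0.0859 CPM) covers counting error only. The labels state 3 replicates and the table holds 2; nothing says that the libraries came from separate matings, so p-values measure the spread between libraries, which may be technical.

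The comparison was fitted on the 4 libraries alone in edgeR 4.0.16 (R 4.3.3, limma 3.58.1): the default low-count filter, TMM, two-sided quasi-likelihood test, Benjamini-Hochberg adjustment. DESeq2 1.42.0 was an alternative. Fitted fold changes carry a prior count of 0.125 and SEs from the F statistic. For 2 against 2 libraries the smallest exact permutation p would be 0.333. CPM use TMM over 6 libraries. Of the genes tested, 19465 matched the mm39 annotation. Named genes were, per direction, the 15 of smallest p with a formal symbol; up to 4 per list by p; and Dppa, Usp and Ldh genes with Kdm4b. Prps1, Btg4, Bmp15, Rplp0, Map1lc3b, Calm2, Taf1d, Spin1, Nr5a2, Klf4, Spic, Eda2r, Cdkn1a, Ddit3, Gadd45a, Gadd45b, the Zscan4 genes, the family members and list exceptions were added after their values were seen. The 36 lists hold 1537 genes, and members, lists and tests were chosen with earlier results of these data known. Replicates differed by more than counting noise (chi-square per degree of freedom 103.8 and 79.0). Same-numbered libraries did not deviate together, so numbers were not taken as pairs. The alternatives were DESeq2, its size factors, library totals, no filter or at least 10 counts in every library, fits sharing 8 late or 12 libraries, the replicate block, each library left out, and other stage lists. 2 columns whose names match no sample were not used. The analysis code was tested on simulated data whose spread between replicates was set below that of these libraries (common dispersion in edgeR 0.726). That test checked the recovery of known fold changes and cannot tell how many genes are found at the spread of these libraries. Figures used Python 3.11.15 and matplotlib 3.10.9.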

Additional observations from a re-analysis of the deposited data

How the results depend on the processing

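The count at an adjusted p under 0.05 depended on the tool: DESeq2 gave 669 genes higher and 514 lower where edgeR gave 0 and 0, and edgeR gave 3 higher with no filter (Yeats2, Gm33508 and Gm5989), 2 higher with at least 10 counts in every library, 9 higher when the late libraries shared the fit, and 0 in either direction whenever a library was left out. The causes were not tested. Genes meeting the looser criterion ran from 864 to 1216 higher and from 563 to 1588 lower over the fits that left out 1 library each, where the lone library of a group is assumed to vary like the other pair. The share of the rising list called higher ran from 22.8% to 30.3%, that of the falling list called lower from 9.02% to 29.7%, the medians from 0.64 to 0.93 and from -0.71 to -0.41. With the replicate number as a block, 1032 genes were called higher and 877 lower, of which 930 and 742 were also called without it. With the block 0 passed the adjusted threshold. The deviations of same-numbered libraries had a correlation of -0.01, so the numbers were not taken as pairs. Whether same-numbered libraries were handled together is not given. Library totals in place of TMM put the median of all genes at 0.10 instead of -0.01, with 1618 higher and 1012 lower. In the fit of the late libraries 63.7% of the called genes were higher, against 52.3%. Stage lists at a log2 fold change of 2 gave 33.5% and 18.2%, lists from L2C-WT against early 2-cell embryos 23.2% and 19.2%. Of the list medians under alternatives, for lists with at least 10 genes tested and apart from the stage lists, 18 had the other sign. Of these, 13 were among the 290 that stayed within the spread between replicates (medians near 0). Another 1 was among the 78 that moved beyond it (histone methylation, -0.087 without the second Lac-CoA library). The other 4 were of lists whose median lay farther from 0 than that spread. For the respiratory chain the median was 0.033 without the second and -0.13 without the first Lac-CoA library. For glycolysis it was -0.08 without the second Lac-CoA library, and -0.29 and 0.62 without the first and second lactate-free one. For nuclear transport it was -0.0017 without the second Lac-CoA and 0.24 without the second lactate-free library. Among smaller lists, the median of Obox genes ran from -0.61 to 0.30 when a library was left out, and that of sex-linked genes from -2.93 to 0.35. Those of Dppa and sperm genes also changed sign. Zscan4d, not called, was at -0.012 with DESeq2 and with its size factors, -0.0084 with the block, and ran from -0.29 to 0.25 over the fits that left out a library, with -0.19 without the first lactate-free one. Of 167 named genes that met the criterion, 106 kept it under every alternative and 46 lost it when some library was left out. The fits planned on 10 and 14 libraries ran on 8 and 12. With 2 libraries a group, differences smaller than the spread within a group were not detectable.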

Other observations

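Genes without a formal name (Gm and Rik symbols), 5009 of those tested, were called higher with Lac-CoA in 220 (4.39%) and lower in 322 (6.43%). The smallest p of the whole table was that of one of them, Gm33508, a long noncoding RNA (chr17:24752836-24765505, plus strand, mm39), at 249 and 229.7 CPM in the Lac-CoA libraries, 31.7 and 30.3 CPM in the lactate-free libraries and 146 and 175 CPM in the lactate-fed libraries, with a log2 fold change of 2.89 ± 0.20 (SE) over lactate-free. Both Lac-CoA libraries lay above all 4 others. Gm10343, a processed pseudogene, was at 36.5 and 60.6 CPM with Lac-CoA, 6.37 and 5.01 CPM in the lactate-free and 70.4 and 69.4 CPM in the lactate-fed libraries. Ppp2r3a, a regulatory subunit of the phosphatase PP2A, was at 14.5 and 13.6 CPM with Lac-CoA, against 0.516 and 0.563 CPM in the lactate-free and 14.8 and 28.9 CPM in the lactate-fed libraries, which is a log2 fold change of 4.63 ± 0.66. Gm33508, Gm10343 and Ppp2r3a were chosen after their values were seen.

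Of 16 host genes of small nucleolar RNAs (Snhg), whose introns carry the guides of rRNA modification, 1 was called higher (6.25%, against 6.89% of all genes) and 0 lower. The median log2 fold change was 0.54 for Lac-CoA over lactate-free and -0.75 for lactate-free over lactate-fed libraries. Of 10 Cct genes, the subunits of the CCT chaperonin, 4 were called higher (40%) and 0 lower (median 0.62). Olfactory receptor genes (Olfr) and vomeronasal receptor genes (Vmn) were called higher in 3 of 96 (3.1%) and 2 of 47 (4.26%). They were called lower in 11 (11.5%) and 6 (12.8%), against 6.29% of all genes, with medians of -0.32 and -0.62. Most of the lower ones were at 0 in both Lac-CoA libraries with few counts in the others, such as Olfr1197 at 2.78 and 3.75 CPM without Lac-CoA. Most of the higher ones were likewise at 0 in both lactate-free libraries. Such calls lie near the floor.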
